A study of Mus musculus and Homo sapiens with 33 samples.

Results

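The genes described here are 47 heat shock proteins and cytosolic chaperones with their cochaperones and heat shock factors, listed by symbol; the rule uses no measured value, but the list was drawn up with earlier results of these data known. All 47 were found among the 20347 genes of the authors' deposited table for H358, and 1 of them, Hspa8, was among the 2509 rows of the LLC1 table. The human H358 cells, labelled non-small cell lung cancer, gave 3 libraries with overexpression of the circular RNA cEMSY and 3 with an empty vector (EV, genotype labelled WT). LLC1 is the Lewis lung carcinoma line of the mouse; it gave 3 libraries with cEmsy overexpression, 3 with an empty vector (also labelled WT) and a separate panel of 21 libraries after 48 h with DMSO or drugs. The study asked how cEmsy affects tumour cells in the setting of immunogenic cell death. Whether the overexpressing cells were clones, pools or transient transfectants, and whether the libraries came from separate cultures, is not given in the sources used here, so p-values measure a spread that may be technical.

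Chaperones bind unfolded protein chains and help them reach their native form. HSP70 proteins take up short exposed stretches, J proteins deliver substrates and trigger ATP hydrolysis, nucleotide exchange factors of the BAG and HSP110 families reset the cycle, HSP90 acts later on kinases and receptors, and the TRiC ring encloses actin, tubulin and other obligate clients. When unfolded protein accumulates, the transcription factor HSF1 is released from chaperones, forms trimers and binds heat shock elements, which are repeats of GAA and its reverse complement TTC, in the promoters of the inducible genes. Exposure or release of HSP70 and HSP90 by dying tumour cells is known as one of the signals of immunogenic cell death.

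To show what such an element looks like in this gene group, the mouse promoter stretches of genes whose human counterparts moved in H358 are printed with the matching bases in capitals (RefSeq, GRCm38.p6). Hspe1 and Hspd1, which encode the mitochondrial chaperonin lid and barrel, lie head to head and share 1 stretch (chr1:55088053-55088082), which reads on the Hspe1 strand from 89 to 72 bases before the start and, for 1 of the Hspd1 starts, on the other strand from 144 to 127 bases before it. The element overlaps an annotated untranslated exon of Hspd1. Hspa1a (chr17:34972242-34972271) and Hspa1b (chr17:34959324-34959353), both on the minus strand and both encoding inducible HSP70, have identical letters here, 104 to 97 bases before the start. Hspb1 (chr5:135887811-135887840, plus strand), which encodes the small heat shock protein HSP27 in humans, has 2 matches, of which the nearer, 97 to 90 bases before its start, is shown.
Hspe1: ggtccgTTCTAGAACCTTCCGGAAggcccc
Hspd1: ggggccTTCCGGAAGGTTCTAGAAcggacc
Hspa1a: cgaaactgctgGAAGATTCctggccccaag
Hspa1b: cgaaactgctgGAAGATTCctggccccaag
Hspb1: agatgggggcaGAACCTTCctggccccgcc

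Capitals mark a 3-unit element, GAANNTTCNNGAA or its other strand TTCNNGAANNTTC, in Hspe1 and Hspd1 (where 2 matches overlap), and a 2-unit element, GAANNTTC or TTCNNGAA, in the others. Each 3-unit match contains 2-unit matches. In the 250 bases before the start, 3 of the 39 member genes with a promoter entry (7.69%) held a 3-unit element and 13 (33.3%) held a 2-unit element. Of all 27025 genes in the same table, 0.514% held a 3-unit and 14.5% a 2-unit element. The third gene with a 3-unit match was Dnajb6, a J protein gene. A match of letters is a description and not a binding site, and the windows are mouse sequence whereas most values below are human. In 38 of the 50 member windows the 20 bases after the start lay in an annotated transcript of the same gene.

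In H358, cytosolic chaperone genes were mostly lower with cEMSY overexpression, by modest amounts, while a few members rose. Of the 47 members, 27 fell and 5 rose in the authors' deposited table at an adjusted p of 0.05, where all genes tested had 16.8% lower and 15.6% higher (32.4% in either direction). The 5 that rose were HSPA2, HSPB1, HSPB8, HSF2 and BAG3. Members had a median log2 fold change of -0.24 in the authors' deposited table, beside 0.03 over all 19154 genes tested. Most changes were small: 46 of the 47 stayed under 1 on the log2 scale in either direction, and HSPA2 was the exception. At an absolute log2 fold change of 0.5 or more, 11 members passed in the authors' deposited table, 7 lower and 4 higher, where all genes tested had 8.43% lower and 11.5% higher (19.9% in either direction). At an adjusted p of 0.01, 28 members were called in the authors' deposited table, 25 lower and 3 higher, where all genes tested had 12.9% lower and 11.5% higher (24.5% in either direction).

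Strongly expressed genes were called more often and more often lower, which bears on that count because 37 of the 47 members had a mean signal of 1000 or more. Among all 3904 genes at that level, 38.9% were lower and 17% higher (55.9% in either direction), with a median log2 fold change of -0.12 in the authors' deposited table. Of the 37 members at that level 24 (64.9%) fell and 3 (8.11%) rose, with a median of -0.26. The part of expression level in the members' count was not tested beyond these values. The table holds fold changes and not values per library, so neither overlap between single libraries nor depth was analysed here for H358. In bulk samples of this kind, fewer cells of a type and less RNA per cell cannot be told apart.

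**Figure D1:**
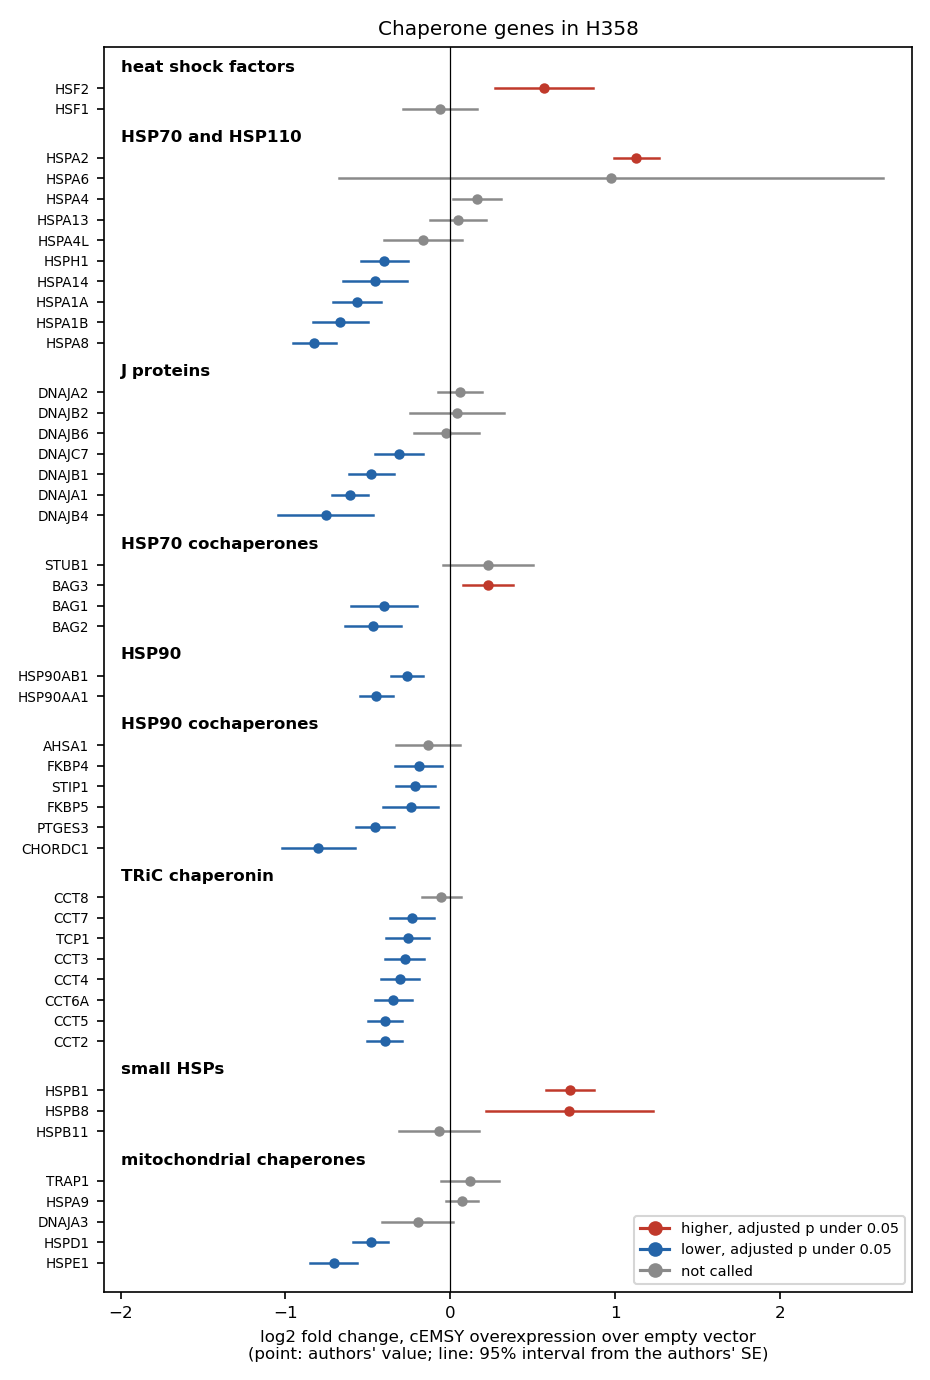
Log2 fold change of the 47 chaperone genes in H358, cEMSY overexpression over empty vector, by role group; points are the authors' values and lines 95% intervals from the authors' standard errors. Most coloured points lie left of 0 (27 lower), and the 5 to the right are HSF2, HSPA2, BAG3, HSPB1 and HSPB8.

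Of the 2 heat shock factors, HSF1, the main activator of the heat shock response, was not called. In the authors' deposited table its log2 fold change was -0.06 (95% interval -0.28 to 0.16, adjusted p = 0.756). HSF1 is controlled mainly by its folding state and modification, so its RNA level is no measure of its activity. HSF2, a related factor that can form mixed trimers with HSF1, rose by 0.57 (SE 0.15, adjusted p = 0.00101) in the authors' deposited table, on a mean signal of 292.

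The HSP70 and HSP110 group held 10 members, of which 5 fell and 1 rose, with a median log2 fold change of -0.28 in the authors' deposited table. Counts of role groups here and below stand beside 16.8% lower and 15.6% higher over all genes tested. They were not tested against those shares. HSPA8 encodes HSC70, the constitutive cytosolic HSP70 that serves folding, clathrin uncoating and chaperone-mediated autophagy. It showed the lowest log2 fold change of all members, -0.82 ± 0.07 (SE; 95% interval -0.95 to -0.70; adjusted p = 1.53e-34), in the authors' deposited table (ENSG00000109971.14). Expressed as a share, its signal fell by 43.5%, on a mean over all libraries of 27299. The inducible pair moved in the same direction. HSPA1A fell by 0.57 (SE 0.08, adjusted p = 1.24e-12) and HSPA1B by 0.67 (SE 0.08, adjusted p = 4.29e-14) on the log2 scale in the authors' deposited table. These genes are near-identical copies, and how reads that match both were counted is not given in the sources used here, so they may not be separate measurements. HSPH1, an HSP110 nucleotide exchange factor, fell by 0.40 (SE 0.07, adjusted p = 3.48e-07) in the authors' deposited table. HSPA14, a ribosome-associated HSP70 relative, fell by 0.46 (SE 0.10, adjusted p = 3.72e-05) there.

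HSPA2 went the other way. It encodes an HSP70 best known from male germ cells, and it rose by 1.13 ± 0.07 (log2, SE; adjusted p = 8.84e-58) in the authors' deposited table, a fold of 2.19. It was the 1 member past the authors' own mark of an absolute log2 fold change of 1, which 9.47% of all genes tested passed. HSPA4, another HSP110 protein gene, stood at 0.16 with a 95% interval of 0.02 to 0.30 in the authors' deposited table, and missed the threshold after adjustment (adjusted p = 0.0757). HSPA4L and HSPA13, an HSP110 relative and a microsomal HSP70, were at -0.17 (-0.40 to 0.07) and 0.05 (-0.12 to 0.21) in the authors' deposited table and were not called. HSPA6, a strictly heat-inducible human HSP70 gene, was barely present. It had a mean signal of 7.62 in the authors' deposited table and an interval from -0.67 to 2.62, which leaves its direction undetermined at this level.

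Among 7 cytosolic J proteins, 4 fell, with a median log2 fold change of -0.31 in the authors' deposited table. DNAJA1, a farnesylated partner of HSC70, fell by 0.61 (SE 0.06, adjusted p = 8.94e-26) and DNAJB1, the inducible HSP40, by 0.48 (SE 0.07, adjusted p = 5.27e-11) in the authors' deposited table. DNAJB4, a close relative of DNAJB1, fell by 0.76 with a wider error (SE 0.15, adjusted p = 2.61e-06) in the authors' deposited table. DNAJC7, which also binds HSP90, fell by 0.31 (SE 0.08, adjusted p = 0.000218) there. The other 3 had intervals that spanned 0. In the authors' deposited table DNAJA2, a second general HSC70 partner, was at 0.06 (-0.07 to 0.19), and DNAJB6, an aggregation suppressor, at -0.02 (-0.22 to 0.17). DNAJB2, a J protein enriched in neurons, was at 0.04 (-0.24 to 0.32) there.

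The HSP70 cochaperones were divided. BAG1 and BAG2, which release nucleotide from HSP70 and steer its clients, fell by 0.40 (SE 0.10, adjusted p = 0.000533) and 0.47 (SE 0.09, adjusted p = 6.44e-07) in the authors' deposited table. BAG3, an HSF1-inducible member that links HSP70 with small heat shock proteins and selective autophagy, rose by 0.23 ± 0.08 (log2, SE; adjusted p = 0.0137) there. STUB1, the ubiquitin ligase CHIP, was at 0.23 (-0.05 to 0.50) in the authors' deposited table and was not called.

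Both cytosolic HSP90 genes fell. HSP90AA1, the inducible form, fell by 0.45 (SE 0.05, adjusted p = 2.35e-17) and HSP90AB1, the constitutive form, by 0.26 (SE 0.05, adjusted p = 1.28e-06) on the log2 scale in the authors' deposited table. As shares, the HSP90AA1 signal fell by 26.8% and the HSP90AB1 signal fell by 16.6%, and their 95% intervals in the authors' deposited table, -0.55 to -0.35 and -0.36 to -0.16, overlapped at their ends. A test between the genes was not run. Of the 6 HSP90 cochaperones 5 fell, with a median of -0.23 in the authors' deposited table. CHORDC1, a CHORD-domain partner of HSP90, fell most among them, by 0.80 (SE 0.11, adjusted p = 2.03e-11), in the authors' deposited table. PTGES3 encodes p23, which stabilises the closed HSP90 dimer, and it fell by 0.46 (SE 0.06, adjusted p = 8.66e-14) there.

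The remaining HSP90 partners moved less. In the authors' deposited table STIP1, the adaptor HOP that joins HSP70 to HSP90, fell by 0.21 (SE 0.06, adjusted p = 0.00196), and FKBP4 and FKBP5, immunophilins of steroid receptor complexes, by 0.19 and 0.24 (SE 0.07 and 0.09, adjusted p = 0.0288 and 0.0184). AHSA1, the activator of the HSP90 ATPase, was at -0.13 (-0.33 to 0.06) in the authors' deposited table and was not called. FKBP4, FKBP5, BAG3 and the small heat shock protein gene HSPB8 were the 4 called members with an adjusted p above 0.01 there.

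The 8 subunit genes of TRiC moved in a narrow band. Of the 8, 7 fell in the authors' deposited table, with log2 fold changes between -0.40 and -0.23 and a median over all 8 of -0.29. Among all genes with a mean signal of 1000 or more, as these 8 have, 38.9% were lower. CCT2 and CCT5 fell by 0.40 each (SE 0.05 each, adjusted p = 1.04e-12 and 3.45e-12), CCT6A by 0.34 (SE 0.06) and CCT4 by 0.31 (SE 0.06) in the authors' deposited table. CCT3, TCP1 and CCT7 fell by 0.28, 0.26 and 0.23 (SE 0.06, 0.07 and 0.07) there. CCT8 stood apart at -0.05 (95% interval -0.17 to 0.06, adjusted p = 0.544) in the authors' deposited table, although its product sits in the same ring. Among the other subunits the signal of CCT7 fell by 14.8% and that of CCT2 fell by 24.2%, the ends of their range.

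Small heat shock proteins, which hold unfolded chains without using ATP, included 2 of the 5 increases. HSPB1, or HSP27, rose by 0.73 ± 0.08 (log2, SE; adjusted p = 1.57e-20) in the authors' deposited table, a fold of 1.65. HSPB8, the partner of BAG3 in autophagy of misfolded proteins, rose by 0.72 ± 0.26 (log2, SE; adjusted p = 0.019) there, from a low mean signal of 185. HSPB11, which in spite of its name is a component of intraflagellar transport, was at -0.07 (-0.31 to 0.18) in the authors' deposited table.

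Of the 5 mitochondrial members 2 fell and 3 were not called, and differences between these genes were not tested. The chaperonin genes, which share the promoter stretch printed above in mouse, both fell: HSPE1 by 0.71 (SE 0.07, adjusted p = 2.28e-21) and HSPD1 by 0.48 (SE 0.05, adjusted p = 2.97e-17) in the authors' deposited table. The mitochondrial HSP70 HSPA9 was at 0.07 (-0.03 to 0.17), its J partner DNAJA3 at -0.20 (-0.41 to 0.02) and the mitochondrial HSP90 TRAP1 at 0.12 (-0.06 to 0.29) in the authors' deposited table, and none of these 3 was called. Of the 39 genes with a mouse promoter entry, a 2-unit element was found in 10 of 23 whose human counterpart fell, in 1 of 5 that rose and in 2 of 11 that were not called. The share was 33.3% over these 39 and 14.5% over all genes with an entry. A link between the element and the calls was not tested. Annotated pseudogenes found by a search on member names carried little signal, and pseudogenes named otherwise may have been missed. The 11 found in the authors' deposited table had mean signals of at most 11.3, and 0 of them was called or had an unadjusted p under 0.05 in that table of DESeq2 form. A further row named CCT6P3, typed as a long non-coding RNA and outside these 11, had a mean signal of 48.8 and was not called in the authors' deposited table.

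**Figure D2:**
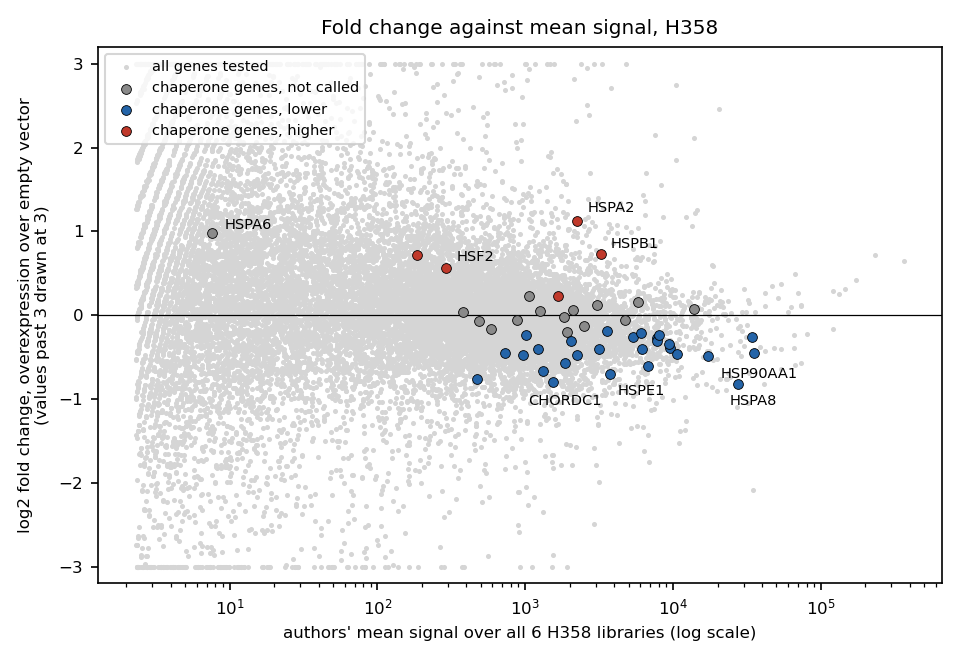
Log2 fold change against the authors' mean signal over 6 libraries (log axis) for all genes tested in H358 (grey) and the 47 chaperone genes (coloured by call; values past 3 are drawn at 3). Members sit mostly at high signal and below 0, with HSPA8 lowest at -0.82 and HSPA2 highest at 1.13.

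Related genes, taken from lists drawn up with earlier results of these data known, gave calls in both directions. Over all genes tested 16.8% were lower and 15.6% higher, and the small counts below were not tested against those shares. Of 16 other cytosolic J proteins 3 fell and 1 rose, with a median log2 fold change of -0.09 in the authors' deposited table. Of 14 other HSP90 cochaperones 4 fell and 2 rose (median -0.20), and of 7 other HSP70 cochaperones 1 fell and 1 rose (median 0.03), in the authors' deposited table. The 9 prefoldin and TRiC cofactor genes gave 2 lower and 2 higher (median 0.12) there. CCT6B, a testis-enriched TRiC subunit gene, was among the increases, at 1.39 ± 0.46 (log2, SE; adjusted p = 0.0108) in the authors' deposited table, on a mean signal of 35.0.

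Other genes known to be induced by HSF1 were likewise mixed: of 12, 3 fell, 1 rose and 8 were not called, with a median of 0.08 in the authors' deposited table. All genes tested had 16.8% lower and 15.6% higher. Some of the 12 had little signal (lowest mean 4.49), which limits the calls, and some are also counted in other lists here. Of 10 genes of mitochondrial proteostasis 2 fell and 2 rose, with a median of -0.10, in the authors' deposited table. HSCB, the J protein of mitochondrial iron-sulphur cluster assembly, rose by 1.33 ± 0.18 (log2, SE; adjusted p = 3.44e-12) there. The 2 other heat shock factor genes and the 2 other small heat shock protein genes had mean signals of at most 79.1 in the authors' deposited table; none was called, and 1 had no adjusted p. Of 4 other HSP70 and HSP110 genes 1 fell and 1 rose.

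Chaperones of the endoplasmic reticulum moved opposite to most cytosolic ones: 7 of 9 rose and 2 were not called in the authors' deposited table, with a median log2 fold change of 0.31. All genes tested had 15.6% higher and 16.8% lower. HSPA5 (BiP), the HSP70 of that compartment, rose by 0.26 ± 0.05 (log2, SE; adjusted p = 1.52e-05) and HSP90B1 (GRP94), its HSP90, by 0.31 ± 0.06 (adjusted p = 2.17e-06) there. Chaperones of this compartment counted in other lists went both ways in the authors' deposited table. SERPINH1, counted with the HSF1-induced genes, fell by 0.30 (SE 0.11, adjusted p = 0.0236). HYOU1, counted with the other HSP70 and HSP110 genes, rose by 0.50 (SE 0.11, adjusted p = 4.27e-05) there. HSPA5, HSP90B1, SERPINH1 and HYOU1 were named after their values were seen. The cytosolic HSP90 genes HSP90AA1 and HSP90AB1 were at -0.45 and -0.26 in the same authors' deposited table. The HSP70 and HSP110 group of 10 ran from -0.82 (HSPA8) to 1.13 (HSPA2) there, with 5 lower, 1 higher and 4 not called. Of 7 general stress genes 5 rose and 2 fell. TRIB3 and CHAC1, both ATF4 targets, rose by 1.46 ± 0.10 and 1.99 ± 0.34 (log2, SE; adjusted p = 5.32e-47 and 4.36e-08) in the authors' deposited table. A difference between lists was not tested.

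**Figure D3:**
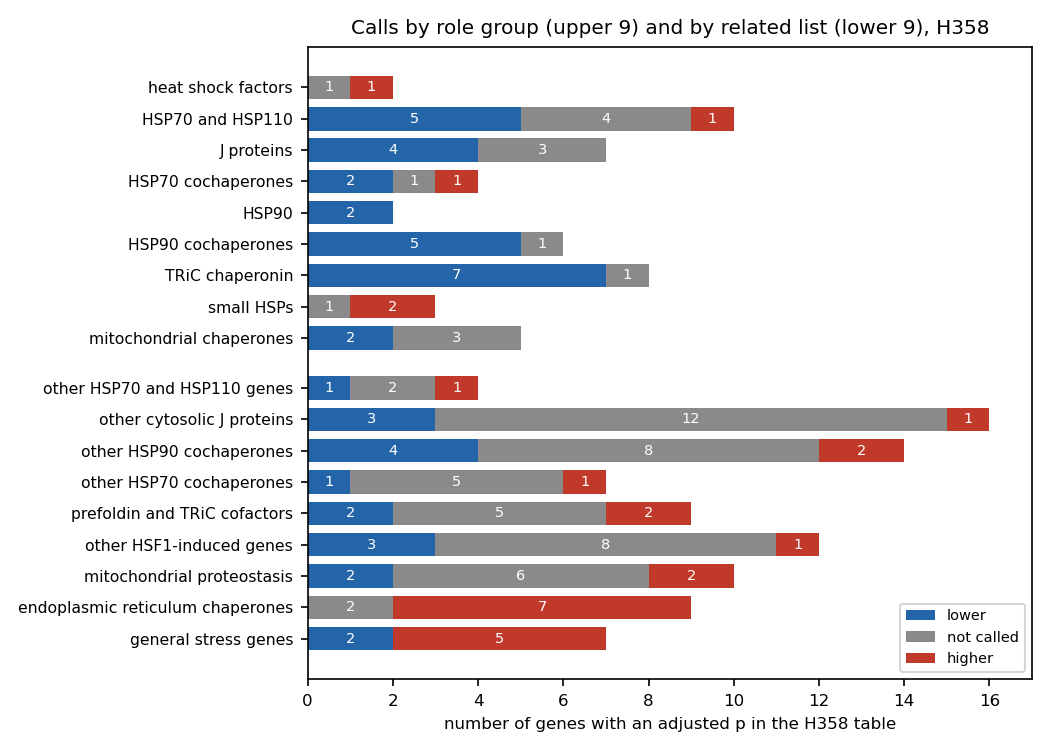
Number of genes lower, not called and higher (adjusted p of 0.05, authors' table) in each role group of the chaperone genes (upper 9 bars) and in related lists (lower 9 bars), H358. Blue dominates HSP90, its cochaperones and TRiC (7 of 8), and red the list of endoplasmic reticulum chaperones (7 of 9). All genes tested had 16.8% lower and 15.6% higher.

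The checks on the samples bear on these values only in part. The log2 fold change of EMSY was 3.84 (SE 0.07) in the authors' deposited table, a gene-level value that does not separate the circular from the linear transcript. Of 10 lung epithelial markers 8 had a row, and NKX2-1 and SFTPB had none. KRT8, KRT18 and KRT7 had mean signals of 41882, 38482 and 31920 in the authors' deposited table, and EPCAM and NAPSA of 40.7 and 16.1. Of these 8 epithelial markers 5 fell and 1 rose, among them KRT7 at -1.05, KRT19 at -3.91 and MUC1 at 1.45 (log2), in the authors' deposited table. All genes tested had 16.8% lower and 15.6% higher. Those with a mean signal of 1000 or more had 38.9% lower and 17% higher. The marker count was not tested against these shares. Of the markers of other cells, 5 of 13 leukocyte, 3 of 8 endothelial and 5 of 8 fibroblast genes had a row, with summed means of 779, 7.16 and 96.2 in the authors' deposited table. CD68 made up 602 of the leukocyte sum and fell by 0.75, and CD4 rose by 7.39 on a mean of 31.2 there. PTPRC, CD3E and VWF were not among the rows used. The part of other cells in the results was not tested.

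In LLC1 the 1 listed member, Hspa8, rose with cEmsy overexpression. The gene lies on mouse chromosome 9 from 40800984 to 40810087, plus strand (mm10, GENCODE M21). The empty vector libraries held 143, 143 and 151 units of the authors' signal per gene, and the overexpression libraries 351, 344 and 330. Every overexpression library lay above every control library, and the groups did not overlap, as in 99.7% of the 2509 rows of this table. The means were 146 ± 4.45 and 342 ± 11.02 (SD, n = 3 each), a ratio of 2.35. In limma on log2(value + 1), Hspa8 rose by 1.23 ± 0.06 (SE; adjusted p = 4.00e-08). The same gene's human counterpart HSPA8 stood at -0.82 in the authors' deposited table for H358. The difference between the lines passed an adjusted p of 0.05 for HSPA8 and for 73.8% of the 1124 genes found in both tables.

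This call must be read against a table restricted to rows the authors had selected as changed. In limma 2110 of the 2111 rows tested passed (100% when rounded), 47.3% higher and 52.6% lower. The other 46 members had no row, so their levels in LLC1, Hspa1a, Hsp90aa1 and the TRiC genes among them, were not analysed here. That Hspa8 was listed and the rest were not says nothing about how much the rest moved. The unit of the signal is not named and depth is unknown.

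Genes related to the members gave further rows in LLC1, some with a sign opposite to H358. The LLC1 rows were 47.3% higher and 52.6% lower in limma. How often signs were opposite over all 1124 genes found in both tables was not tested. Hspa12a, a distant HSP70 relative, stood at 1.05, 1.11 and 1.18 units in empty vector and 2.36, 2.86 and 2.43 with cEmsy, and rose by 0.74 ± 0.09 (limma, log2, SE; adjusted p = 1.63e-05). Its human counterpart HSPA12A fell by 0.45 (SE 0.10, adjusted p = 8.46e-05) in the authors' deposited table for H358. The difference (H358 minus LLC1) was -1.20 with a 95% interval of -1.51 to -0.88. The scales differ: the 1 added before the log shrinks the limma value at signals this low. The ratio of the LLC1 means was 2.29, and the interval does not cover that shrinkage. Hspa1l, an HSP70 gene best known from testis that neighbours Hspa1a and Hspa1b, stood at 2.15, 2.13 and 1.85 units in controls and at 0.787, 0.982 and 0.677 with cEmsy. It fell by 0.75 (limma, log2, SE 0.09; adjusted p = 2.33e-05), on low values and in a family with near-identical members. HSPA1L was at 0.63 (SE 0.47, adjusted p = 0.341) in the authors' deposited table for H358 and was not called.

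Hscb rose in LLC1 as HSCB did in H358. Its LLC1 values were 4.13, 4.03 and 4.13 units in empty vector and 11.5, 10.7 and 10.3 with cEmsy, a rise of 1.22 ± 0.07 (limma, log2, SE; adjusted p = 1.49e-07), beside the 1.33 of the authors' deposited table for HSCB in H358. The difference (H358 minus LLC1) was 0.11 with a 95% interval of -0.34 to 0.56, so values differing by up to that much are not told apart. The ratio of the LLC1 means was 2.65 and the H358 fold 2.51. As the added 1 shrinks the limma value, the sign of this difference is not settled. Sdf2l1, a component of an endoplasmic reticulum chaperone complex, stood at 75.4, 73.7 and 78.2 units in empty vector and 42.3, 43.0 and 28.9 with cEmsy. It fell by 1.00 (limma, log2, SE 0.13; adjusted p = 4.18e-05), whereas SDF2L1 rose by 0.58 ± 0.16 (log2, SE; adjusted p = 0.00121) in the authors' deposited table for H358. Hmox1, the heme oxygenase of oxidative stress, went from 297 ± 16.8 to 969 ± 159 (SD, n = 3 each), a rise in limma of 1.69 ± 0.11 (log2, SE; adjusted p = 3.06e-07), while HMOX1 fell by 0.21 (SE 0.08, adjusted p = 0.0298) in the authors' deposited table for H358. Hsf5, a germ cell heat shock factor gene, stood at 0.757 ± 0.0863 in empty vector and 0.264 ± 0.0781 with cEmsy (SD, n = 3 each); it passed the filter on low values only through the group where it was high, so no test is given. The groups did not overlap in these genes either, as in nearly all rows (99.7%). Of the marker lists, the leukocyte gene Cd68 went from 2.46 ± 0.232 to 7.45 ± 1.40 and the fibroblast gene Col1a2 from 0.221 ± 0.0572 to 0.0740 ± 0.0395 (SD, n = 3 each). The lung epithelial gene Krt7 went from 0.316 ± 0.0390 to 2.88 ± 0.245 and Napsa from 0.903 ± 0.190 to 2.29 ± 0.722 (SD, n = 3 each). Their part in the results was not tested.

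**Figure D4:**
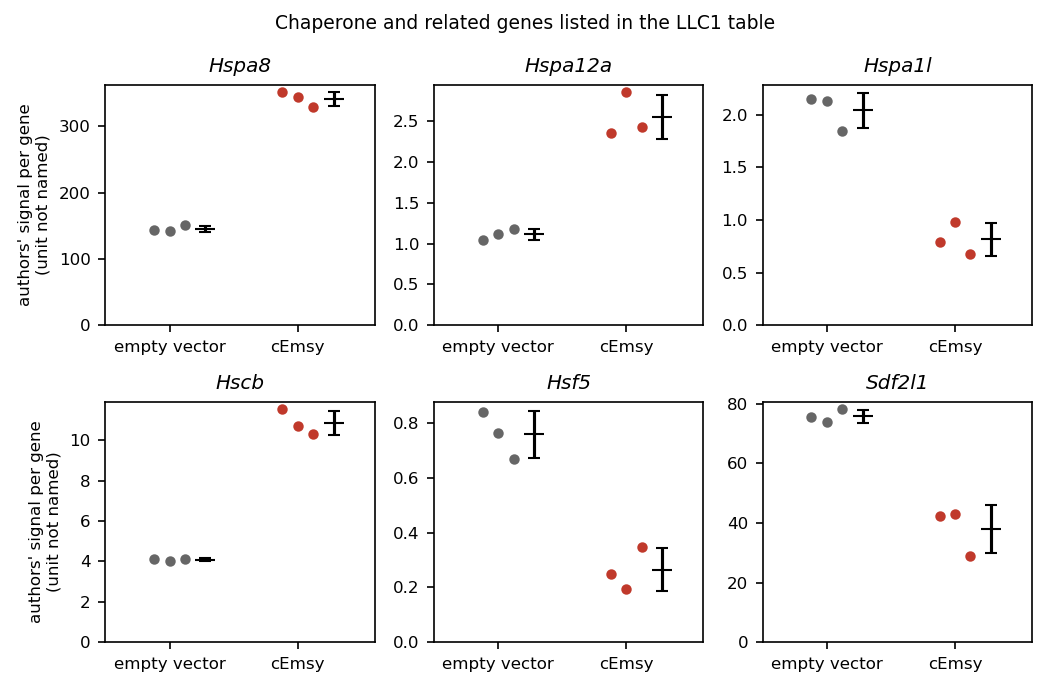
Authors' signal per gene (unit not named, axes from 0) for Hspa8 and 5 related genes in the 3 empty vector and 3 cEmsy libraries of LLC1; points are libraries, the black bar the mean and its whiskers the SD. Hspa8, Hspa12a and Hscb are higher and Hspa1l, Hsf5 and Sdf2l1 lower with cEmsy, without overlap.

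A circular RNA from 1 member gene, Fkbp5, was listed in the LLC1 drug panel. It spans mouse chromosome 17 from 28428352 to 28441053 on the minus strand (mm10), from the start of exon 2 to the end of exon 5 of an annotated Fkbp5 transcript (4 exons, 529 nt spliced). The start codon begins at base 22 of exon 2. The junction that defines the circle joins the last bases of exon 5, in lower case, to the first of exon 2, in capitals, and is shown because the reads of the circle are told from the linear RNA by it.
Fkbp5 junction: gagcaacggtaaaagGTCTTCTACTTACAA

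The treatments were doxorubicin (4 mM), bortezomib (100 nM), oxaliplatin (500 uM), dactinomycin (1 uM), (R)-crizotinib (10 uM) with cisplatin (50 uM) and pemetrexed with cisplatin (2.5 uM each), all labelled WT. The authors' signal of this circle was 1164, 1558 and 671 units after (R)-crizotinib with cisplatin, 1069, 1400 and 580 after oxaliplatin and 710, 527 and 615 after dactinomycin. It was listed at 0 in all libraries with DMSO, doxorubicin and bortezomib, and after pemetrexed with cisplatin at 0 in 2 libraries and at 1331 in the other. The number of circular RNAs above 0 in the table of 472 also differed between libraries: 141 to 234 with crizotinib and cisplatin, 335 to 364 with oxaliplatin and 430 to 440 with dactinomycin, against 4 or 5 with DMSO and 38 to 58 with doxorubicin or bortezomib. After pemetrexed with cisplatin, the library with the circle had 45 and the other libraries 52 and 54. The 3 treatments with the circle in every library also had more rows above 0 than the rest. The part of these counts in the signal was not tested. With the unit not named and few circles in DMSO, a 0 there is a weak statement, and no fold is given. The linear Fkbp5 transcript was not analysed here in these libraries.

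**Figure D5:**
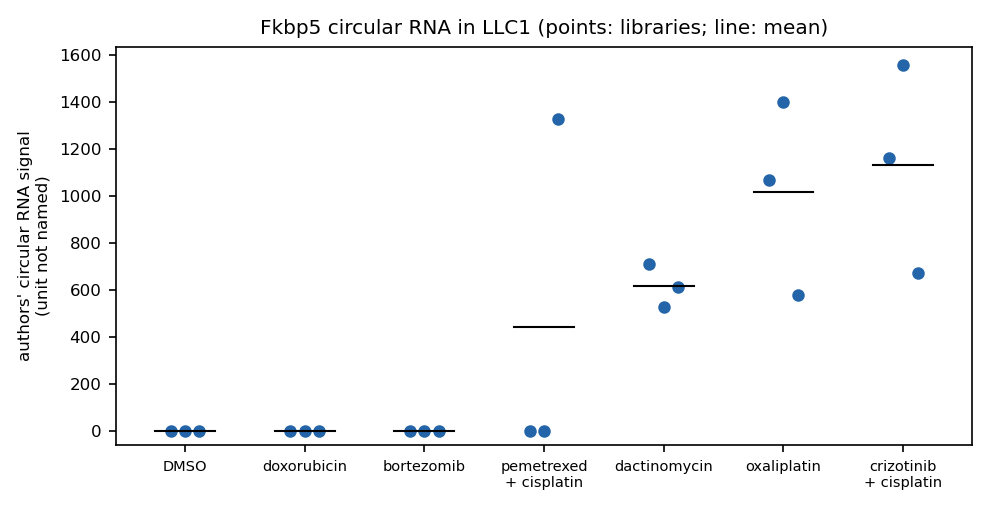
Authors' signal (unit not named) of the Fkbp5 circular RNA in 21 LLC1 libraries by treatment; points are libraries and lines means. It is above 0 in 3 of 3 libraries after dactinomycin, oxaliplatin and crizotinib with cisplatin, in 1 of 3 after pemetrexed with cisplatin, and listed at 0 elsewhere.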

How the data were processed

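Total RNA was depleted of ribosomal RNA and made into stranded libraries, per the labels' protocols. STAR, featureCounts, FastQC and MultiQC, with builds hg19 and mm10, appear in the submitters' processing notes; the circular RNA caller is not given in the sources used here. For H358 the authors deposited a mean signal, a log2 fold change with its standard error, a statistic (score) and p-values, with columns named as in DESeq2 output per the file headers; these were taken as they stand. The statistic equalled fold change over error within 0.001 in all 20347 genes, and 19154 had an adjusted p. The 95% intervals use those errors. For LLC1 the authors deposited a signal per gene or circular RNA, as a table described in the labels as differentially expressed rows, with depth unknown. Gene signals were fitted with limma 3.58.1 in R 4.3.3 (mean-variance trend, log2(value + 1), mean of 0.5 or more, Benjamini-Hochberg at 0.05), tested on simulated data; fold changes of low genes are understated on that scale. LLC1 control columns name the group but no single labelled library. Sequences are from RefSeq (GRCm38.p6) and GENCODE M21; the Hspa8 promoter was not used. All members may be named. Other listed genes were named if past an absolute log2 fold change of 1, if listed in LLC1 or as checks. HSPA5, HSP90B1, SERPINH1, HYOU1 and CD68 were named after their values were seen. Members and lists were chosen with earlier results of these data known. Alternatives covered thresholds, filters, centring, pseudocount and left-out libraries.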

Additional observations from a re-analysis of the deposited data

Results flagged for a closer look

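HSPA8 differed between the lines under the same kind of contrast. Its log2 fold change was -0.82 in the authors' deposited table for H358 and 1.23 in limma for LLC1, a difference (H358 minus LLC1) of -2.05 with a 95% interval of -2.25 to -1.84. Tested against the combined standard error (8 degrees of freedom) and adjusted over the 1124 genes found in both tables, it had an adjusted p of 9.32e-07; this test across all shared genes was chosen after seeing the data. The difference is not particular to HSPA8: 829 of those genes (73.8%) passed the same threshold, and 101 (8.99%, HSPA8 included) differed by as much or more. The LLC1 rows were selected as changed, the scales differ, and line, species and the making of the tables cannot be told apart.

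The Fkbp5 circular RNA was above 0 in data outside the main comparison while the DMSO libraries were listed at 0. In those DMSO libraries only 4 or 5 of the 472 circular RNAs were above 0, so a 0 there was usual. The mean signal of the Fkbp5 circle was 617 ± 91.2 after dactinomycin, 1016 ± 412 after oxaliplatin and 1131 ± 444 after crizotinib with cisplatin (SD, n = 3 each). After pemetrexed with cisplatin 1 library held it, at 1331. No test was run on it. Outlying single libraries were not sought, since every group held 3.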

How the results depend on the processing

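No paired analysis was possible because the LLC1 control columns carry no link to single labelled libraries and the H358 table holds no value per library. For the same reason no library could be left out in H358. The 32 calls there (5 higher, 27 lower) became 11 (4 higher, 7 lower) with an absolute log2 fold change of 0.5 or more, where all genes tested had 19.9% called (11.5% higher, 8.43% lower). With 1 or more they became 1 higher and 0 lower, the lowest value being -0.82 whatever the p. At an adjusted p of 0.01, 28 were called, 3 higher and 25 lower (24.5% of all genes tested in either direction). Adjusting over every gene with a p-value, or centring on the median of all genes (0.03), left all 47 single calls as they were. Adjusting over genes with a mean of 10 or more left out HSPA6 (mean 7.62) and did not alter the calls of the other members. The direction of each role group's median stayed as it was with centring. Hspa8 in LLC1 stayed called with a pseudocount of 0.1, without a filter and with libraries centred on their medians (1.43), and ranged from 1.21 to 1.25 without single libraries. Its rows were selected as changed and 2110 of 2111 passed in the main fit. Staying called was thus nearly fixed in advance. The selection may also have favoured large changes, so these settings show only how far the size moved between them. Unknown depth limits HSPA6 and other low genes.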
